A study of Mus musculus with 4 samples.

Results

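The genes Gad1, Gad2, Slc32a1, Pvalb and Lhx6, by which GABA-releasing (inhibitory) neurons are recognised, were followed through 4 coronal sections of the mouse brain. They were taken by gene symbol from the 32285 genes of the count files, and all 5 of 5 symbols were found. Each section came from 1 mouse and was read with 10x Genomics Visium, in which barcoded capture spots each take up mRNA from a small group of neighboring cells. All mice were adult males, 3 to 4 months old, of the genotype ArcCreERT2::eYFPflx on a C57BL/6 background, in which the promoter of the activity-dependent gene Arc drives a Cre recombinase that 4-hydroxytamoxifen switches on, and all received that drug before the retention test. The 2 trained mice had learned active place avoidance (APA), that is, to stay out of a shock zone on a rotating arena. The 2 untrained mice were placed on the same arena with the shock off, and tissue of both groups was taken 3 days after the retention test.

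GABA neurons make their transmitter from glutamate with glutamate decarboxylase, which exists as GAD67 (encoded by Gad1) and GAD65 (encoded by Gad2). The product of Slc32a1, the vesicular GABA transporter, loads GABA into synaptic vesicles. Pvalb encodes parvalbumin, a cytoplasmic calcium buffer of fast-spiking basket and chandelier interneurons of cortex and hippocampus and of neurons in the reticular nucleus of the thalamus, the GABAergic shell around the relay nuclei. Lhx6 encodes a LIM homeodomain transcription factor of interneurons born in the medial ganglionic eminence, which give rise to the parvalbumin and somatostatin classes.

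Of the members 4 lie on chromosome 2 and Pvalb lies on chromosome 15. In the GRCm38 annotation, Gad1 (ENSMUSG00000070880) spans chr2:70553072-70602014, Gad2 (ENSMUSG00000026787) chr2:22622205-22693874 and Slc32a1 (ENSMUSG00000037771) chr2:158610767-158615748, all on the plus strand. Lhx6 (ENSMUSG00000026890) spans chr2:36081953-36105408 and Pvalb (ENSMUSG00000005716) chr15:78191114-78206400, both on the minus strand. RefSeq start sites were given for all 5 members, with 8 promoter windows in total. The windows of Gad1, Gad2 and Slc32a1 are shown because the levels of these 3 genes followed each other across brain regions. Each runs from 250 bases before to 50 bases after the start site (RefSeq, GRCm38.p6) and is written 5′ to 3′ on the strand of the gene. Capitals mark matches, on either strand, to any of 4 short promoter motifs, none of which overlapped here. The sequence searched for as the TATA box was TATAAA. The GC box was searched for as GGGCGG and the CAAT box by the letters CCAAT. The core that homeodomain proteins prefer was written as TAATTA.
Gad1, chr2:70561879-70562178, plus strand: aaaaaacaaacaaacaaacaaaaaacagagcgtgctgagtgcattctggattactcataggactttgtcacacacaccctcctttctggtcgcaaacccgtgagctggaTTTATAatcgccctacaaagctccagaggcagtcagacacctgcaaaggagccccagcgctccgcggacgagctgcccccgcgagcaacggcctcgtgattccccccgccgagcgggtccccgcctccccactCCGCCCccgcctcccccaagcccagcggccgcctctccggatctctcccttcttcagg
Gad2, chr2:22622077-22622376, plus strand: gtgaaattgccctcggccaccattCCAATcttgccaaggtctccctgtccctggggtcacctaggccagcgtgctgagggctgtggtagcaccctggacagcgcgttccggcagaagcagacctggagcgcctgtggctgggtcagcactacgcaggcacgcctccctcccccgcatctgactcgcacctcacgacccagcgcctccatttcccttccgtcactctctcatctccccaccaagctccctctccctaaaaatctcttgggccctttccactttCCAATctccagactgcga
Slc32a1, chr2:158610508-158610807, plus strand: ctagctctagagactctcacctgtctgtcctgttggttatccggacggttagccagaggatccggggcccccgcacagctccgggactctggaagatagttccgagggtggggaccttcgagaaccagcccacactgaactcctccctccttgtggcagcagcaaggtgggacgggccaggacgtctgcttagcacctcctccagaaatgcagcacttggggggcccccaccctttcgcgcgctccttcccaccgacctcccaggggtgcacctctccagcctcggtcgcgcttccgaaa
The Gad1 window held a TATA box match 141 bases before the start site and a GC box match 8 bases before it, both on the opposite strand. The Gad2 window held 2 CAAT box matches, at 226 bases before and 32 bases after the start site. The Slc32a1 window held none of the 4 motifs. Among all 32851 promoter windows of the same length, 13.6% held the TATA box, 35.7% the GC box, 37.4% the CAAT box and 5.29% the homeodomain core. The 3 windows were 60%, 61.3% and 63.3% G and C, against a median of 52.7% over all windows. A match is a description of the letters and was not tested as a site.

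Depth differed between sections. Trained 1, trained 2, untrained 1 and untrained 2 held 7119995, 10330015, 3560294 and 6581748 unique molecular identifiers (UMIs, each 1 captured mRNA molecule), over 2865, 3055, 2359 and 2661 spots. Values are given in this order below, and levels as CPM (UMIs of the gene per 1000000 UMIs of the same spots). Untrained 1 was the shallowest section, with a median of 1048 UMIs per spot against 1851 to 2493 in the others. Although the tissue is labelled hippocampus, hippocampal spots made up 233 to 263 of each section. Spots were given to 14 regions by marker lists that hold no member, with each spot averaged with its neighbors first, and 1790 to 2445 spots of a section received a region. All listed markers were detected. A list of ependymal genes was left unnamed because hypothalamic genes led its spots, and no gene of the CA1 or CA3 list was among the 10 genes that led those 2 regions. UMIs are counted at the 3′ end of an mRNA, and levels of different genes are not ranked against each other.

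The members differed widely in how often they were captured. Summed over the 4 sections, Gad1 had 10671 UMIs, Pvalb 6938, Gad2 4694 and Slc32a1 3857. Lhx6 had 261 UMIs, 35 to 77 per section, and did not pass the filter on low counts in the comparison of regions. Its levels by region therefore rest on 0 to 16 UMIs per section.

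The reticular thalamus list marked the highest level of Gad1, Gad2, Slc32a1 and Pvalb among the 14 regions. Gad1 stood at 1373, 1938, 1047 and 1096 CPM there, against 401, 442, 335 and 312 CPM over all spots of the sections. Pvalb stood at 1115, 2039, 844 and 829 CPM, against 250, 342, 156 and 162 CPM over all spots. Every section showed the same contrast, and trained 2 was the highest for both genes. Gad2 reached 502, 508, 328 and 393 CPM and Slc32a1 reached 373, 451, 320 and 365 CPM. In edgeR's quasi-likelihood test, with the section as a block and each region set against the mean of the other 13, Pvalb was 8.10-fold higher (log2 fold change 3.02 ± 0.11 SE, adjusted p = 3.15e-43). Gad1 was 4.74-fold higher (2.24 ± 0.093 SE), Slc32a1 3.83-fold (1.94 ± 0.12 SE) and Gad2 3.44-fold (1.78 ± 0.12 SE), all past the threshold. Without Six3 and Meis2 in the list, a choice made after seeing the data, Pvalb was at 1.98 and Gad1 at 1.57 on the log2 scale, and all 4 still passed. These 4 of 4 tested members compare with 7.98% of the 8011 genes tested in that region in either direction. Adjusted p-values are Benjamini-Hochberg values over all genes, with 0.05 as the threshold.

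**Figure D1:**
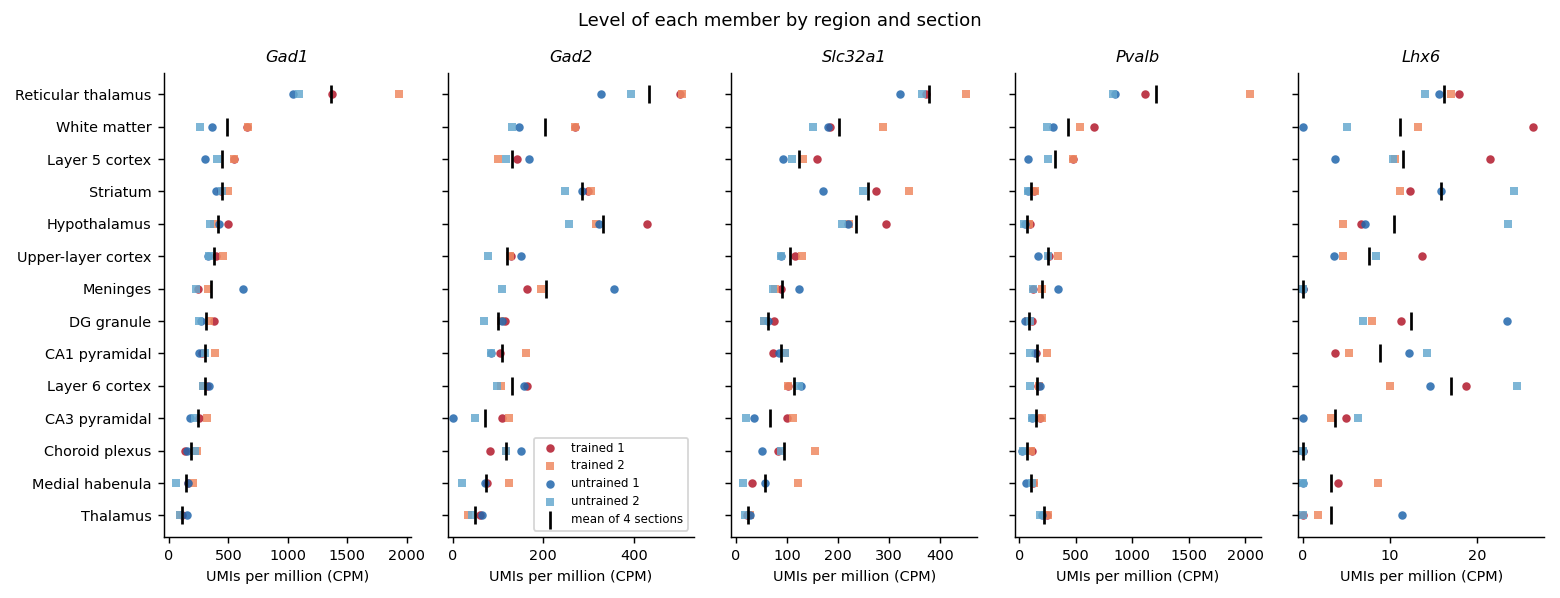
Levels of the 5 genes (horizontal axes, CPM, a scale of its own for each gene) in the 14 regions (rows, ordered by the mean of Gad1), with a point for each of the 4 sections and a black bar for their mean. The reticular thalamus row is farthest right for Gad1, Gad2, Slc32a1 and Pvalb, the thalamus row is lowest for Gad1, Gad2 and Slc32a1, and the Lhx6 points rest on 0 to 16 UMIs each.

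Of the 56 tests of a member in a region, 31 passed the threshold, 17 higher and 14 lower, against 16.5% of the 112154 tests over all genes and regions. Gad2 passed in 8 regions, Gad1 in 7, Slc32a1 in 7 and Pvalb in 9 of 14. The 3 genes for making and loading GABA moved in the same direction wherever more than 1 of them passed, whereas Pvalb moved against them in 2 regions. The regions are taken in turn below.

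In the relay thalamus Gad1, Gad2 and Slc32a1 were low, whereas Pvalb did not pass. Slc32a1 stood at only 20.7, 27.1, 28.3 and 17.2 CPM and Gad2 at 59.8, 33.4, 65.1 and 42.9 CPM in thalamus spots. Slc32a1 was lower than in the other regions (log2 fold change -2.47 ± 0.17 SE, adjusted p = 3.62e-24), as were Gad1 (-1.86 ± 0.13 SE) and Gad2 (-1.81 ± 0.15 SE). In thalamus spots 33.8% of all genes tested passed in either direction. Pvalb stood at 244, 255, 195 and 179 CPM there and did not pass (0.30 ± 0.12 SE, adjusted p = 0.0547). Counted within the section, there were 1.33 to 2.80 Pvalb UMIs for each Gad1 UMI in thalamus spots, against 0.756 to 1.05 in reticular spots and 0.106 to 0.214 in hypothalamus spots. This ratio was not tested, and of the other 13 regions only the medial habenula (0.364 to 1.89) overlapped the thalamus. Of the thalamus spots with a Pvalb UMI, 37.0% to 47.6% also held a UMI of Gad1, Gad2 or Slc32a1. Among all thalamus spots 22.6% to 38.0% held 1 of these 3 genes. In layer 5 cortex 75.6% to 92.6% of spots with a Pvalb UMI did, against 59.3% to 72.6% of all layer 5 spots, and in reticular spots 72.2% to 92.8% against 63.9% to 81.3%. The share was thus higher among spots with a Pvalb UMI in all 3 regions and in each section, and the regions differed in the share over all spots as well. This did not hold everywhere, since the share was lower in medial habenula, choroid plexus and CA3 of trained 2 and in meninges of untrained 1. The median spot with a Pvalb UMI was deeper than the median spot of its whole section in thalamus and layer 5 in all 4 sections. In reticular spots this held in the trained sections but not in untrained 1 (918.5 against 1048 UMIs) or untrained 2 (1467 against 1851 UMIs). Depth was not compared with the other spots of the same region.

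Hypothalamus and striatum were rich in Gad2 and Slc32a1 and poor in Pvalb. In hypothalamus spots Gad2 stood at 429, 317, 324 and 257 CPM and Slc32a1 at 294, 222, 220.1 and 208 CPM. Pvalb stood at 93.8, 80.3, 52.1 and 36.9 CPM there, its lowest mean of the 14 regions. Gad2 was 2.43-fold higher (log2 fold change 1.28 ± 0.098 SE, adjusted p = 1.74e-20), Slc32a1 was 2.24-fold higher and Gad1 1.26-fold, whereas Pvalb was lower (-1.53 ± 0.16 SE, adjusted p = 2.39e-13). The call of Gad1 was lost in 5 of 14 alternatives, among them DESeq2 (log2 fold change 0.33) and without trained 1 (0.24). Of all genes tested in hypothalamus spots 28% passed. In the striatum, whose list marks the GABAergic medium spiny neurons themselves, Slc32a1 was 2.72-fold higher (1.45 ± 0.11 SE), Gad2 2.19-fold and Gad1 1.45-fold, and Pvalb was lower (-0.75 ± 0.17 SE), all 4 past the threshold against 17.7% of all genes. The balance of the 2 decarboxylase genes also differed by region. Gad1 UMIs per Gad2 UMI were 1.16 to 1.35 in hypothalamus, 1.39 to 1.79 in striatum and 2.74 to 3.82 in reticular spots. Of the other regions only the choroid plexus (1.0 to 2.0) overlapped the range of hypothalamus, whereas striatum and reticular spots each overlapped several, such as layer 5 (1.78 to 5.47). These ratios were not tested.

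In the cortex, Pvalb and Gad1 were higher in layer 5. Pvalb stood at 470, 472, 76.8 and 253 CPM in layer 5 spots and was 1.91-fold higher than in the other regions (log2 fold change 0.93 ± 0.12 SE, adjusted p = 1.10e-09). Untrained 1 was far below the other sections. In trained 1, 25 layer 5 spots lay within 2 spots of a reticular spot and held 1655 CPM of Pvalb and as much Gad1. In the layer 5 spots farther away Pvalb stood at 351, 478, 61.4 and 268 CPM and Gad1 at 433, 550, 274 and 392 CPM, both above the level of all spots in 3 of 4 sections. The part of reticular tissue in the layer 5 values was not tested. Gad1 was 1.39-fold higher in layer 5 (0.48 ± 0.10 SE, adjusted p = 0.000192), and Gad2 and Slc32a1 did not pass (-0.26 ± 0.13 SE and 0.14 ± 0.12 SE), against 16.6% of all genes. In upper-layer cortex only Pvalb passed (1.52-fold, 0.60 ± 0.13 SE, adjusted p = 0.000263, against 18.4% of all genes), and it did not pass without untrained 2 (0.43). No member passed in layer 6, against 14.4% of all genes. Lhx6 stood at 18.7, 10.0, 14.6 and 24.6 CPM in layer 6, from 11, 9, 4 and 12 UMIs.

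Hippocampal layers held intermediate or low levels. In CA1 no member passed, against 13% of all genes, with Gad1 at 280, 390, 249 and 299 CPM and Pvalb at 145, 243, 133 and 96.1 CPM. In the granule layer of the dentate gyrus (DG) Gad2 (log2 fold change -0.59 ± 0.20 SE), Slc32a1 (-0.91 ± 0.21 SE) and Pvalb (-1.09 ± 0.23 SE) were lower, while Gad1 did not pass (-0.087 ± 0.14 SE), against 17.8% of all genes. The call of Gad2 was lost in 7 of 14 alternatives, among them without trained 1 (-0.59) and without untrained 2 (-0.52). In CA3 Gad2 was lower (-0.73 ± 0.22 SE, adjusted p = 0.0147, against 12.8% of all genes), a call lost without trained 1 (-0.77), untrained 1 (-0.56) or untrained 2 (-0.64). The CA3 spots of untrained 1 held no Gad2 UMI among 55930, which allows a level of up to 53.6 CPM. All 4 tested members were lower in the medial habenula, with Gad1 the furthest (-1.33 ± 0.19 SE, adjusted p = 2.68e-08), against 9.76% of all genes. Without trained 1, Slc32a1 (-0.75) and Pvalb (-0.80) did not pass there. In the choroid plexus Pvalb alone passed (-1.32 ± 0.36 SE, against 14.7% of all genes), though not without untrained 2 (-1.15). In the meninges no member passed, against 3.35% of all genes.

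White matter spots, chosen by myelin genes, were higher in all 4 tested members. Pvalb stood at 661, 532, 294 and 242 CPM and Gad1 at 654, 662, 362 and 262 CPM. The 2 trained sections were above both untrained sections for both genes, as in 21.1% of tests over all genes and regions. Against the other regions Pvalb was 2.79-fold higher (log2 fold change 1.48 ± 0.15 SE), Slc32a1 2.23-fold, Gad2 1.75-fold and Gad1 1.71-fold, with 23.4% of all genes past the threshold there. With no averaging over neighboring spots Gad1 (0.30) and Slc32a1 (0.29) did not pass, and in the untrained sections alone Gad1 (0.19) and Gad2 (0.38) did not. Pvalb passed in all 14 alternatives (1.19 to 2.29). White matter lies beside the reticular spots on the array, and 44 to 93 of its spots per section lay within 2 spots of one. In those near spots Gad1 stood at 774, 858, 608 and 308 CPM, against 385, 489, 291 and 234 CPM in the farther spots. The farther white matter spots were below the level of all spots for Gad1 in 3 of 4 sections and above it for Pvalb in all 4, at 385, 432, 189 and 218 CPM. The part of reticular tissue in the white matter values was not tested.

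The regions were sorted by the mean of each member, and each was tested against the next. The order came from the same levels, so neighbors lie close by construction and few passes are no result about the members. No share over all genes was taken for these steps. Of the 13 steps for each gene, 1 passed for Gad1, 4 for Gad2, 3 for Slc32a1 and 2 for Pvalb. For Gad1 that step was from reticular thalamus to white matter (1.37 on the log2 scale). For Pvalb the steps from reticular thalamus to white matter (1.43) and from white matter to layer 5 (0.51) passed, and the other 11 steps did not. Over all 91 pairs of regions, 57 passed for Gad1, 57 for Gad2, 59 for Slc32a1 and 55 for Pvalb, against 16.1% over all genes and pairs.

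Spots of the reticular list were not of 1 kind. They fell into patches, and the patches could be divided into those within 2 spots of the thalamus and those farther away. This split was made after the values had been seen and is given with no test. The bordering patches held 74, 55, 44 and 48 spots, and Gad1 stood there at 2435, 3290, 2087 and 2337 CPM. Away from the thalamus, in 68, 99, 64 and 43 spots, it stood at 476, 636, 553 and 531 CPM. The bordering patches were thus far above the rest in each section. Pvalb was at 2231, 3765, 2403 and 2532 CPM in the bordering patches and at 172, 376, 104 and 54.5 CPM elsewhere. Slc32a1 differed less, at 493, 548, 388 and 405 CPM against 271, 357, 288 and 347 CPM. Lhx6 ran the other way, with 1 UMI among 494629 in the bordering patches and 18 among 653711 elsewhere, a ratio of 0.0734. The 95% counting interval of this ratio, 0.00176 to 0.465, pools the UMIs of all sections and covers counting error alone. It leaves out variation between mice and is no test of the split. The list itself held Six3 and Meis2, transcription factors that other GABA neurons of the forebrain also use, beside Ecel1 and Cacna1i. With Six3 and Meis2 left out of the list, a choice made after seeing the data, 31 tests again passed.

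**Figure D2:**
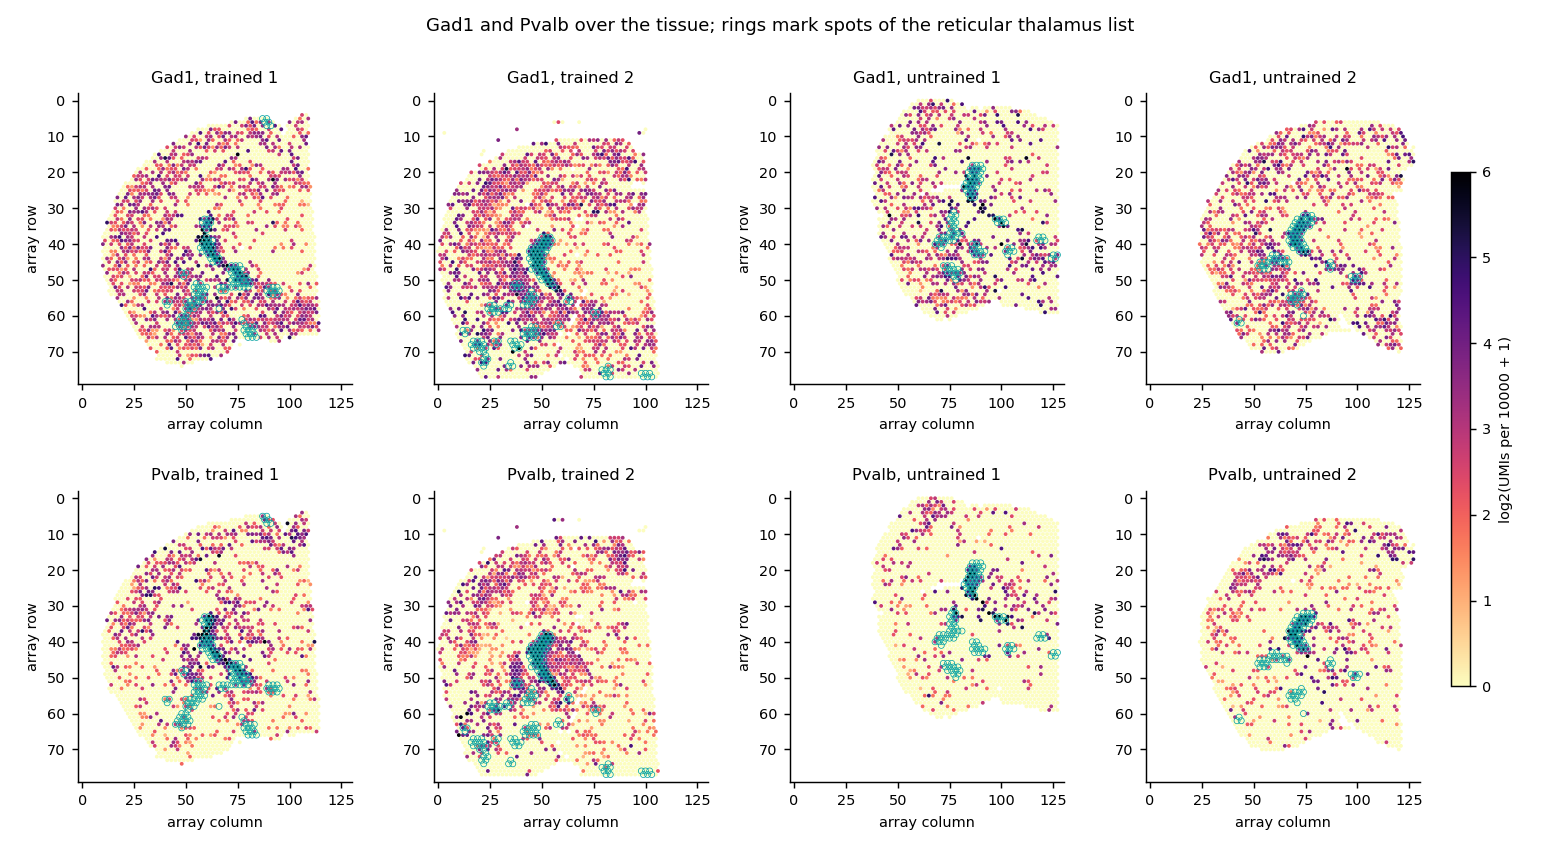
Spots of the 4 sections at their array column and row, colored by the level of Gad1 (upper row) and Pvalb (lower row) relative to the UMIs of the spot, on a log2 scale, with rings around spots of the reticular thalamus list. A curved band of ringed spots at the edge of the thalamus is dark for both genes in every section, and the ringed patches below it are dark for Gad1 more often than for Pvalb.

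**Figure D3:**
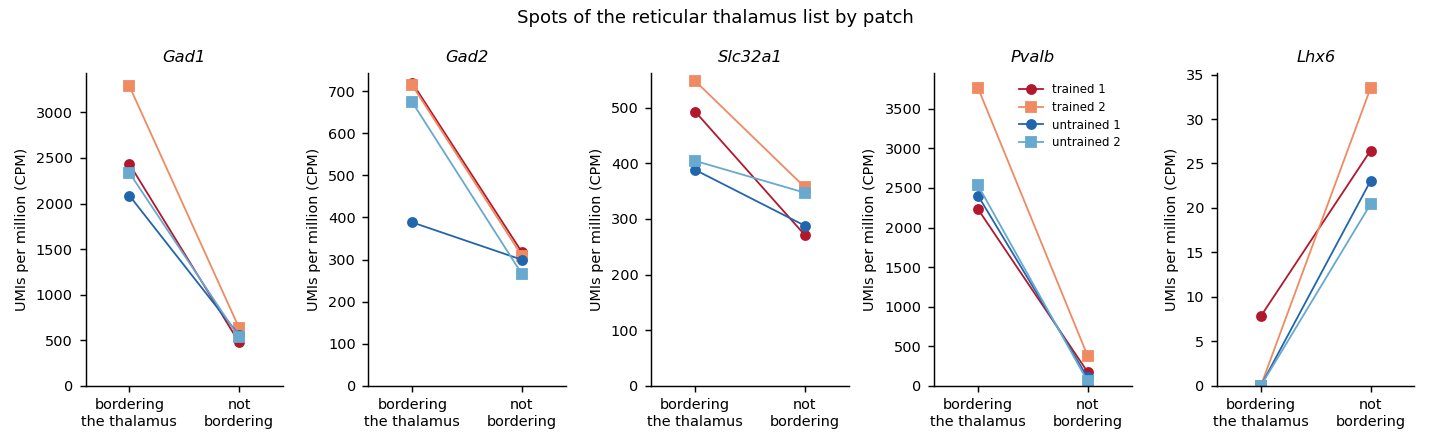
Levels (vertical axes, CPM, from 0) of the 5 genes in reticular-list patches that border the thalamus and in those that do not, with 1 line per section. Gad1 falls from 2087 to 3290 CPM to 476 to 636 CPM and Pvalb from 2231 to 3765 CPM to 54.5 to 376 CPM, whereas Lhx6 is at 0 to 7.83 CPM in the bordering patches and 20.4 to 33.5 CPM elsewhere.

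Across the 56 region sums the patterns of Gad1, Gad2 and Slc32a1 were alike, and that of Pvalb was apart. As a description over sums that share 4 libraries, Pearson's r of log2 CPM, centred within sections, was 0.86 between Gad1 and Slc32a1, 0.82 between Gad2 and Slc32a1 and 0.76 between Gad1 and Gad2. For Pvalb it was 0.57 with Gad1, 0.33 with Slc32a1 and 0.24 with Gad2. Among 7982 genes compared, the 5 most like Gad1 were Slc32a1, Gad2, Sst (somatostatin, 0.75), Six3 (0.67) and Lgi2 (0.66). Those most like Gad2 were Slc32a1, Gad1, Bola2 (0.76), Slc35f1 (0.72) and Kazn (0.72), and those most like Slc32a1 were Gad1, Gad2, Sst (0.78), Alcam (0.69) and Meis2 (0.69). Pvalb was most like Ptprd (0.74), Vamp1 (synaptobrevin, 0.73), Cplx1 (complexin, 0.71), Kcnc1 (the fast potassium channel Kv3.1, 0.65) and Syt2 (synaptotagmin, 0.65). Six3 and Meis2 belong to the list that chose the reticular spots, so that their likeness over these regions is partly set by that choice. Lhx6 was below the filter and was not compared.

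Other genes of the GABA pathway moved in both directions across regions. Of 10 genes for GABA transport, breakdown and precursor supply, 9 were tested, and 3 rose and none fell in reticular spots, where 7.98% of all genes passed in either direction, among them Abat (GABA transaminase, log2 fold change 0.65) and Slc38a1 (a glutamine carrier, 0.47). The median of the 9 was 0.28, against 0.013 over all genes tested there. In thalamus 4 of the 9 rose and none fell, where 33.8% of all genes passed in either direction and Gad1, Gad2 and Slc32a1 were lowest. Those that rose included Slc6a11 (the astrocytic GABA transporter GAT3, 1.47), Slc38a1 (0.63) and Abat (0.36), and the median of the 9 was 0.10 against -0.019 over all genes. Hypothalamus had 3 higher and 4 lower, against 28% of all genes in either direction, and white matter 5 and 1, against 23.4%. Striatum had 1 and 3, against 17.7%, and layer 5 had 1 of each, near its 16.6% of all genes. Layer 6 had 1 higher and 5 lower, against 14.4%, and the medial habenula 3 and 0, against 9.76%.

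Genes of interneuron classes differed by region. Of 16 listed genes 12 were tested, and 6 rose and none fell in layer 5 (median 0.49 against 0.0073 over all genes), led by Lamp5 (1.63) and Vip (1.51, vasoactive intestinal peptide), where 16.6% of all genes passed. Upper-layer cortex had 6 higher and 2 lower, against 18.4%, and layer 6 had 4 and 2, against 14.4%. In thalamus, where 33.8% of all genes passed, 3 rose and 9 fell (median -1.83), with Nos1 (-2.82, neuronal nitric oxide synthase), Cnr1 (-2.34, the cannabinoid receptor CB1), Lamp5 (-2.26) and Tac1 (-2.20, the substance P precursor) furthest down. Those that rose there were Calb2 (calretinin, 1.64), Cck (cholecystokinin, 0.88) and Calb1 (calbindin, 0.86), and Cck was also higher in layer 5 (0.67) and Calb1 in upper-layer cortex (0.63). In reticular spots, against 7.98% of all genes, Sst rose (1.17), and Cck (-0.88) and Id2 (-0.71) fell. Of 14 fast-spiking and medial ganglionic eminence genes 10 were tested, and in reticular spots, with 7.98% of all genes past the threshold, 4 rose, namely Syt2 (1.78), Kcnc1 (0.99), Ank1 (0.98) and Kcnab3 (0.89), while Mef2c fell (-0.57). In layer 5, against 16.6% of all genes, 6 of these 10 genes rose and none fell, led by Satb1 (1.61) and by Mef2c (1.42), which cortical excitatory neurons also express. Only 3 of 14 GABA lineage transcription factors passed the filter, and in reticular spots Six3 (4.38), which the region list used, and Nr2f2 (1.57) rose.

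The members were often detected in the same spot. Within strata of region and UMI quartile, the odds ratio of detection together was above 1 for all 10 pairs of members in all 4 sections. It was 1.61 to 2.29 for Gad1 with Slc32a1, 1.44 to 1.86 for Gad1 with Gad2, 1.44 to 2.40 for Gad2 with Slc32a1 and 1.52 to 1.67 for Gad1 with Pvalb. Pairs of Pvalb with Gad2 (1.12 to 1.32) and with Slc32a1 (1.17 to 1.31) were weaker. With Slc17a7, the vesicular glutamate transporter of cortical excitatory neurons, the ratios were 0.986 to 1.18 for Gad1, 0.884 to 1.02 for Gad2 and 0.825 to 1.11 for Slc32a1. Pvalb, however, gave 0.990 to 1.72 with Slc17a7 and 1.502 to 1.751 with the myelin gene Mbp, the latter close to its ratios with Gad1. Gad2 with Mbp gave 1.045 to 1.425, above 1 in all 4 sections. The ratios with Mbp were 0.9749 to 1.406 for Gad1, 0.7214 to 1.548 for Slc32a1 and 0.9684 to 2.237 for Lhx6. Those of Pvalb with Gad2 and with Slc32a1 thus lay within the ranges of Gad2 and of Slc32a1 with Mbp. Spots of 1 section are not replicates, so these ratios carry no p-value, and quartiles leave some difference in depth within a stratum.

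**Figure D4:**
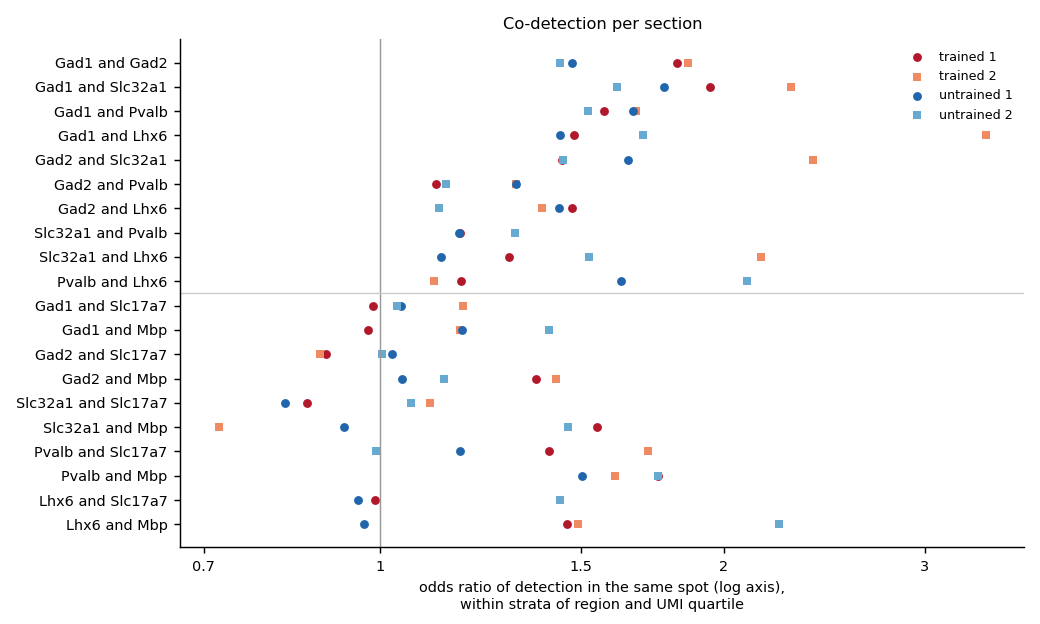
Odds ratio that 2 genes were detected in the same spot (log axis), within strata of region and UMI quartile, with 1 point per section. The 10 pairs of members (above the line) are right of 1 in all 4 sections, whereas pairs with Slc17a7 and Mbp (below the line) lie on both sides of 1 except Pvalb and Gad2 with Mbp.

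To ask whether APA training altered these genes, trained sections were compared with untrained sections. Over whole sections Pvalb stood at 250 and 342 CPM in the trained mice and at 156 and 162 CPM in the untrained mice, and the groups did not overlap. The log2 fold change was 0.81 ± 0.14 SE, or 1.76-fold, and it did not pass in edgeR's test (adjusted p = 0.220). Gad1 (0.30 ± 0.11 SE), Gad2 (0.33 ± 0.16 SE) and Slc32a1 (0.33 ± 0.11 SE) were also above 0 with groups that did not overlap, and Lhx6 (-0.40 ± 0.27 SE) overlapped. Over all genes tested 28.8% lay above in both trained sections and 12.1% below. No member passed in edgeR's test, against 0.0145% of 13810 genes, whereas 3 members (Pvalb, Slc32a1 and Gad1) had an unadjusted p under 0.05, against 7.96% of all genes. DESeq2 called 1, Pvalb (adjusted p = 0.000317), against 0.578% of the 3636 genes to which it gave an adjusted p, Lhx6 not among them. Over 11 alternative settings the adjusted p of Pvalb ranged from 8.69e-11 without trained 1 to 0.893 without untrained 1, and 5 of them called it, also that without trained 2. Its log2 fold change stayed between 0.63 and 0.97. With 2 mice a group, these p-values measure the spread among 4 sections. With 1 section left out, its group holds a single section that is assumed to vary like the pair of the other group.

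The sections did not hold the regions in equal parts. Reticular spots gave 3.92% and 5.11% of the UMIs of the trained and 3.60% and 3.25% of those of the untrained sections, and thalamus spots 12.9% and 16.8% against 9.92% and 10.6%. The summed level of 4 excitatory neuron markers, all of them detected in each section, was 722 and 624 CPM in trained and 867 and 838 CPM in untrained sections. In bulk sums of this kind, more cells of a type and more RNA per cell cannot be told apart. Without the reticular and white matter spots, Pvalb stood at 205 and 235 against 126 and 136 CPM, a 1.68-fold difference of the means. It still did not pass in edgeR's test (adjusted p = 0.135). Among the same spots Gad2 overlapped between the groups, at 189 and 154 against 160 and 114 CPM. Gad1 and Slc32a1 did not overlap, nor did Lhx6, which was lower in both trained sections. With every region weighted alike, the mean of Pvalb was 280 and 355 against 186 and 180 CPM.

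The same 4 sections were also compared within single regions, so that the regions are not independent of each other or of the whole sections. For Pvalb the log2 fold change was above 0 in 13 of 14 regions, with a median of 0.74, and both trained sections were above both untrained sections in 11 regions. Of 1709 genes tested in all 14 regions, 9.6% were above 0 in at least 13 of them and 1.29% had this separation in at least 11. Both trained sections were above in 7 regions for Gad1, 6 for Gad2, 7 for Slc32a1 and 4 for Lhx6, and below in 1 region for Slc32a1 and 3 for Lhx6, against 21.1% above and 14.3% below over all genes and regions. None of the 56 tests passed in edgeR, against 0.0358% of 83703 tests over all genes and regions, whereas 20 had an unadjusted p under 0.05, against 5.91% of all tests. DESeq2 called 0, against 0.0108%. The lowest adjusted p of Pvalb was in layer 5 (log2 fold change 1.28, adjusted p = 0.146), where untrained 1 was lowest, and the value was 0.80 without untrained 1 and 2.54, past the threshold, without untrained 2, a fit whose spread comes from the trained pair alone. The log2 fold change of Pvalb in reticular spots was 0.91, with 0.50 without trained 2 and 1.27 without trained 1. It was 1.55 with Six3 and Meis2 left out of the list, a choice made after seeing the data. In white matter it was 1.09. In the reticular patches that border the thalamus, trained and untrained sections overlapped for Pvalb, at 2231 and 3765 against 2403 and 2532 CPM. In the patches elsewhere they did not overlap, at 172 and 376 against 104 and 54.5 CPM, from 26 and 101 against 9 and 8 UMIs. This split was made after the values had been seen, and no share over all genes was taken for it. The bordering patches made up 45.8% and 49.1% of the reticular UMIs of the trained and 32.2% and 31.2% of those of the untrained sections.

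**Figure D5:**
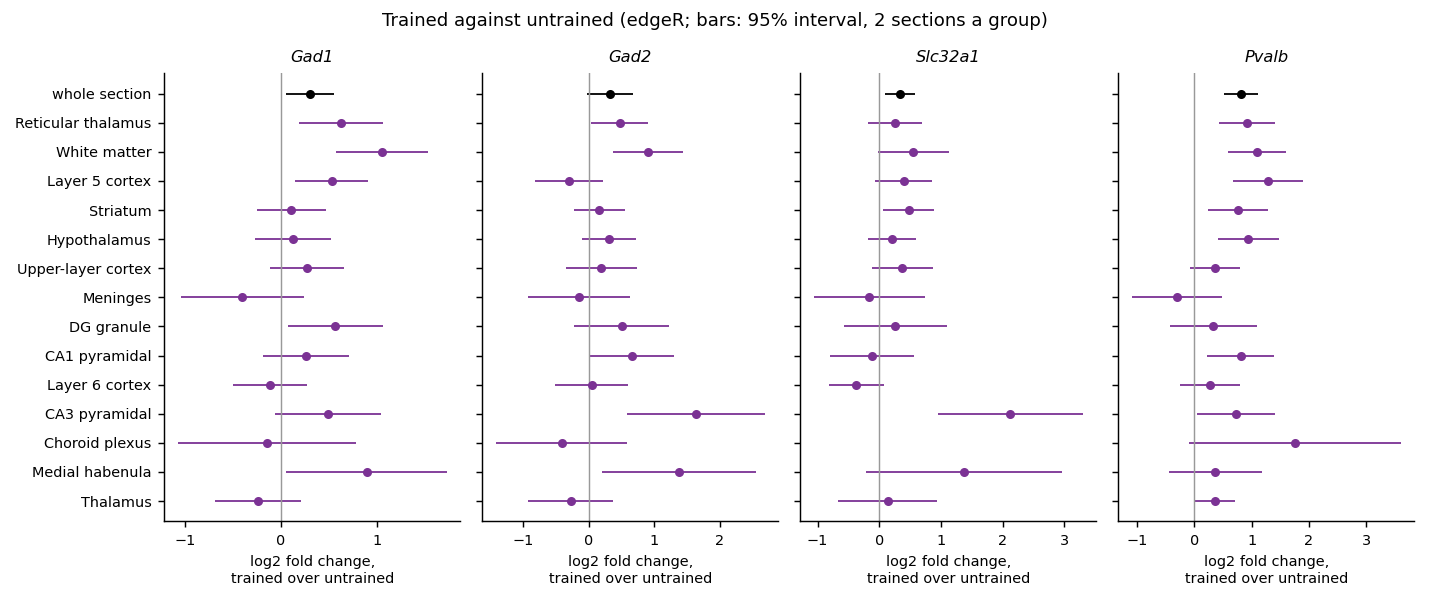
Log2 fold change of trained over untrained sections (edgeR, 2 against 2; horizontal axes) for 4 genes in whole sections (top row) and in the 14 regions (13 for Slc32a1, which was not tested in the choroid plexus), with 95% intervals that are not adjusted for the number of tests. Pvalb lies right of 0 in 13 of 14 regions, and no value passed the adjusted threshold.

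In CA3, Slc32a1 stood at 99.5 and 111 CPM in trained and 35.8 and 18.9 CPM in untrained sections, from 20, 34, 2 and 3 UMIs, and did not pass (log2 fold change 2.12, adjusted p = 0.294). The test of a training effect that differs between regions passed for no member (0 of 56 in edgeR, against 0.00478% over all genes), with 12 at an unadjusted p under 0.05, against 4.81%, and 0 called by DESeq2, which called 0 over all genes. Without trained 1, Gad2 in layer 5 passed. Of the pathway and interneuron lists no gene passed over whole sections. Within regions 2 of 374 tests of list genes passed, against 0.0358% over all genes. Sst fell in thalamus (-1.41, adjusted p = 0.00428), from 90.2 and 77.8 CPM in trained against 286 and 156 CPM in untrained sections. It passed in 10 of 13 alternatives, and not without trained 2 (-1.20), without untrained 1 (-0.96) or with DESeq2 (-1.44). Nr2f2 fell in layer 5 (-2.05, adjusted p = 0.0315), from 17 and 16 against 27 and 49 UMIs. It passed in 6 of 13 alternatives. Among those in which it did not were no averaging over neighboring spots (-0.99), DESeq2 (-2.02), without trained 2 (-1.42) and without untrained 1 (-1.90).

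As counted, more spots held Gad1, Gad2, Slc32a1 and Pvalb in both trained sections than in either untrained section, an order that 58.8% of all genes tested showed. At equal depth all but Gad2 kept this order, which 27.6% of all genes then showed. A Gad1 UMI was found in 45.5%, 47.9%, 30.5% and 39.3% of spots, and a Pvalb UMI in 30.4%, 36.9%, 15.3% and 21.98%. When each spot was thinned to 200 UMIs, leaving out 70, 58, 114 and 28 shallower spots, Gad1 was expected in 7.14%, 7.13%, 6.26% and 5.90% and Pvalb in 5.04%, 5.08%, 3.04% and 3.33%. The myelin gene Mbp was also in more spots of both trained sections as counted (means of 89.5% and 82.9%), and overlapped when thinned (37.4% and 35.2%). Slc17a7 ran the other way after thinning, with groups that did not overlap, at a mean of 7.76% in trained and 9.81% in untrained sections. Of all genes tested, 10.8% showed that order when thinned. The exact permutation test over sections (two-sided) gave p = 0.333 wherever the groups did not overlap, the smallest value that 2 against 2 allows. Lhx6 was found in 2.51%, 2.42%, 1.44% and 2.67% of spots. Of the Lhx6-positive spots 91.5% to 98.6% held a single UMI, and no spot held more than 2.

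Hippocampal spots with at least 1 UMI of Gt(ROSA)26Sor (eYFP+) were compared with those without (eYFP-) in the same section. The paper reads this gene as the mRNA of its eYFP tag. Whether such a UMI marks a tagged neuron was not tested. There were 70, 67, 5 and 91 eYFP+ spots, so the untrained comparison rests on untrained 2. These spots were deeper, with a median of 3647, 4875, 1827 and 3715 UMIs against 1702, 2368, 987 and 1520. Gad1 differed by a log2 fold change of 0.012 ± 0.18 SE in trained and 0.011 ± 0.28 SE in untrained sections, with 95% intervals of -0.34 to 0.36 and -0.53 to 0.55. Gad2 differed by 0.19 ± 0.25 SE and 0.17 ± 0.46 SE, with intervals of -0.29 to 0.68 and -0.73 to 1.06, and Slc32a1 by 0.29 ± 0.29 SE and -0.080 ± 0.48 SE. Pvalb stood at 159 against 130 CPM in trained 1 and 234 against 144 CPM in trained 2, and did not pass (0.46 ± 0.22 SE). In the untrained sections its log2 fold change was 0.24 and did not pass either. None of 8 tests passed in edgeR, against 0.0945% of 7411 genes in the trained and 0.0945% in the untrained sections, with 1 at an unadjusted p under 0.05 (Pvalb, trained), against 3.68% of all tests, and 0 called by DESeq2, which called 0 over all genes.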

How the data were processed

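UMI counts per gene and spot, raw whole numbers with no normalization, were deposited by the authors for each of 4 Visium sections (2 trained, 2 untrained, 1 mouse each). The methods name Space Ranger v2.0.0 and mm10, the file header another Space Ranger version, and the labels Cell Ranger 8, STAR and mm39. The counts hold no genomic coordinates, and spot positions are the array positions deposited with them. Gene positions come from GENCODE (GRCm38) and promoters from RefSeq (GRCm38.p6).

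Spots were scored by 15 marker lists after 2 rounds of averaging with touching spots. A score of at least 1 SD was needed, with 2 touching spots of the same region, and the rule was settled on the region maps. Spots of the hippocampal lists outside their largest patch were left out (61 to 146 a section). UMIs were summed per section and region (56 sums of at least 10 spots each). The sums went into glmQLFit and glmQLFTest of edgeR 4.0.16 after filterByExpr and TMM scaling, with section as a block between regions and 2 against 2 sections for training. The rank-sum test on spots that the methods name was not used, since spots of 1 mouse are not replicates. A standard error is the log2 fold change over the square root of F. Alternatives were DESeq2 1.42.0, other filters, scalings and region rules, and each section left out. The fits were also run on simulated data, with an outcome that is not reported here. Named genes are the members, the 5 most alike and, per comparison, up to 4 called genes of each list, of which some are not reported here. The members and lists were chosen with earlier results of these data known. Counting intervals and floors (3 counts) cover counting error alone, and intervals of log2 fold changes come from the edgeR fits. Same-numbered sections were not paired (correlation of their deviations 0.019 over 13810 genes).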

Additional observations from a re-analysis of the deposited data

Results flagged for a closer look

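Slc32a1 in layer 6 cortex, taken as its level there minus its mean over the other regions, moved in opposite directions in the 2 groups. It was -41.7 and -66.9 CPM in the trained and 11.2 and 5.35 CPM in the untrained sections, a difference of -62.6 CPM. The test of a training effect that differs between regions did not pass for it (edgeR, log2 -0.87, adjusted p = 0.923). In layer 6 itself Slc32a1 stood at 102 and 103 CPM in trained and 128 and 123 CPM in untrained sections.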

How the results depend on the processing

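Between regions, 25 to 39 member tests passed under the alternatives (31 as reported, 26 to 35 without 1 section), and 17 of the 31 calls were made in every setting that tested them. Of 432 recomputed values for single calls none changed direction and 33 lost the threshold. Library totals in place of TMM moved the median of all genes by up to -0.17 and 0.10 (log2) between regions and 0.14 within regions, with no change of direction for these calls. For training over whole sections 1 member, Pvalb, passed with DESeq2, with no filter and with the replicate block, and 0 to 1 without 1 section. The replicate block rests on numbers that did not pair the samples. Within regions 4 tests passed with no filter and 4 with the replicate block (Pvalb in layer 5, reticular thalamus and white matter, and Gad1 in white matter), 2 with a stricter margin between region scores (Gad1 and Gad2 in white matter), 1 with sums thinned to the smallest total (Pvalb in layer 5), 1 with Six3 and Meis2 left out of the reticular list, a choice made after seeing the data (Pvalb in reticular thalamus), and 0 to 4 without 1 section, among them 4 without trained 1, 2 without trained 2 and 1 without untrained 2. For a training effect that differs between regions 0 to 1 passed without 1 section (Gad2 in layer 5, without trained 1). The share of Lhx6-positive spots, trained minus untrained, was -0.0083 percentage points when thinned and 0.413 as counted, and -0.0565 to 0.0399 without 1 section (0.0195 without untrained 2). The median odds ratio of member pairs was 1.57, and rose to 2.76 with region alone as stratum and 2.96 with none, settings that leave depth uncorrected. At least 2 UMIs of Gt(ROSA)26Sor left untrained 1 without eYFP+ spots, and its sum was dropped. Lhx6 had too few UMIs for a training test in 13 of 14 regions. The cause of the other changes was not tested.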
